A study of Mus musculus with 11 samples.

Results

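Non-hemogenic endothelium, which the study takes from the major arteries of the mid-gestation mouse embryo, was compared with the precursors of hematopoietic stem cells (pre-HSCs). The hemogenic endothelium that lies between them was left out. No arterial marker was part of the endothelial gate, so endothelium of other vessels in the dissected tissue was not excluded. The 5 libraries compared were the 2 endothelial (Endo) and the 3 pre-HSC libraries among 11 poly(A) RNA-seq libraries of 5 sorted populations. The other populations were E10.5 hemogenic endothelium (HE), E14.5 fetal liver HSCs (FL HSCs) and bone marrow HSCs (BM HSCs) of adult mice 6 to 8 weeks old, each with 2 libraries. Of 37820 genes in the table, the 13262 with at least 1 FPKM (fragments scaled to transcript length and to the mapped fragments of the library) in at least 2 of the 5 libraries were tested.

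Endo cells were taken from E10.5 embryos of B6C3F1 females mated to males carrying Runx1tm4Dow, an allele that places a GFP reporter at the endogenous Runx1 locus. They were sorted as CD31+ cells without Runx1:GFP, c-Kit, CD45 or CD41, so that HE, which carries the reporter, was excluded. Pre-HSCs came from embryos of superovulated B6C3F1/J females mated to males with a Ly6a:GFP transgene [B6.Cg-Tg(Ly6a-GFP)G5Dzk/J], and were sorted as CD31+ CD144+ ESAM+ c-Kit+ Ly6a:GFP+ cells. For both populations the aorta-gonad-mesonephros (AGM) region and the umbilical and vitelline vessels were dissected, and the tissues were pooled for the pre-HSCs. The study's methods name no CD45 or lineage antibody for the pre-HSC sort and no Ter-119 antibody for the Endo sort. The labels give all 5 libraries as strain B6129SF1 at E10.5, whereas the methods give E11.5 for the pre-HSCs. Stage, mating, reporter and gate therefore all change together with the population and cannot be told apart from it. The study calls the libraries of a population biological replicates of sorted cells. The labels do not say how embryos were divided among them. The p-values rest on the spread within populations, pooled over all 11 libraries of the fit and not over these 5 alone.

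Blood stem cells arise in the embryo when a few endothelial cells in the walls of the large arteries round up and bud into the lumen as clusters, a change of identity called the endothelial-to-hematopoietic transition. The transcription factor RUNX1 is required for it, whereas Notch signaling first sets up the arterial identity of the vessel wall. The clusters hold pre-HSCs, which still carry endothelial surface proteins and cannot yet repopulate an adult recipient without further maturation.

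Across all tested genes, pre-HSCs gained far more transcripts than they lost. A gene was called when a moderated F test over the 5 populations had an adjusted p under 0.01, the difference between Endo and pre-HSC had an adjusted p under 0.05, and the level differed at least 2-fold (limma on log2(FPKM + 1), Benjamini-Hochberg adjustment over all tested genes). By this rule 1156 genes (8.72% of those tested) were higher in pre-HSCs and 379 (2.86%) were lower, 1535 genes or 11.6% in either direction. At least 4-fold differences were found for 330 of the higher genes and 75 of the lower genes. All log2 fold changes below are pre-HSC over Endo on the log2(FPKM + 1) scale, which understates the change of genes at low levels. The median over all tested genes was 0.15, so list medians should be read against that value and not against 0. The balance of the calls depended on the scaling of the libraries: after quantile normalization 708 genes were higher and 621 lower (median -0.05), and after scaling all libraries to equal FPKM totals 1733 were higher and 202 lower (median 0.39). FPKM totals were 645078 to 789161 in Endo and 569851 to 610013 in pre-HSCs. No whole-read steps were found in the values, so depth is not known here and values carry no counting error.

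**Figure D1:**
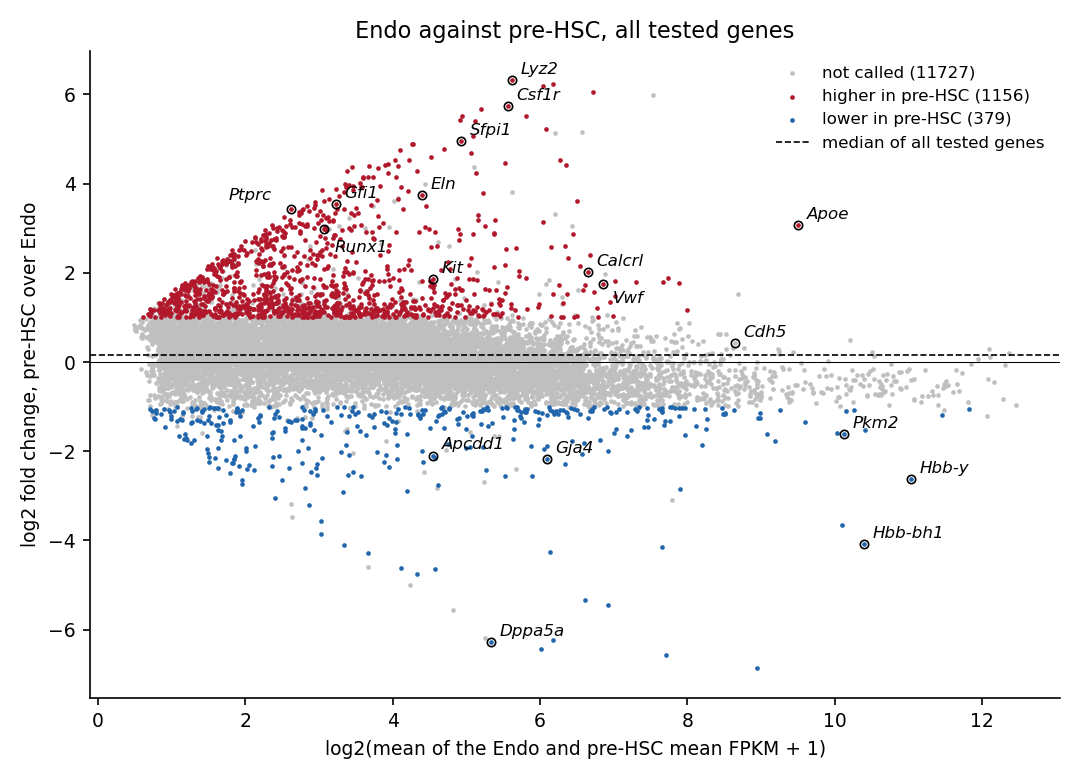
Log2 fold change of pre-HSC over Endo (vertical) against the mean level of both populations as log2(mean FPKM + 1) (horizontal) for the 13262 tested genes; 1156 genes called higher are red, 379 called lower are blue and uncalled genes are gray, with the median of all tested genes (0.15) dashed. The called split shifts to 708 and 621 after quantile normalization and to 1733 and 202 after scaling to equal totals.

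Members of 34 gene lists, 32 of them plotted, were counted among these calls, as a description of each list and not as a test of it. A member that passed the level filter only through the pre-HSC libraries had to be higher there. Of 958 tested genes that reached 1 FPKM in no Endo library, 432 were called, and of 154 that reached it in no pre-HSC library, 80 were called, so their number is given for each list with many of them. The lists with the largest shares of higher members were those of macrophages and granulocytes, blood cell surface proteins and leukocyte signaling, whereas germ cell, erythroid and glycolysis genes had the largest shares of lower members.

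**Figure D2:**
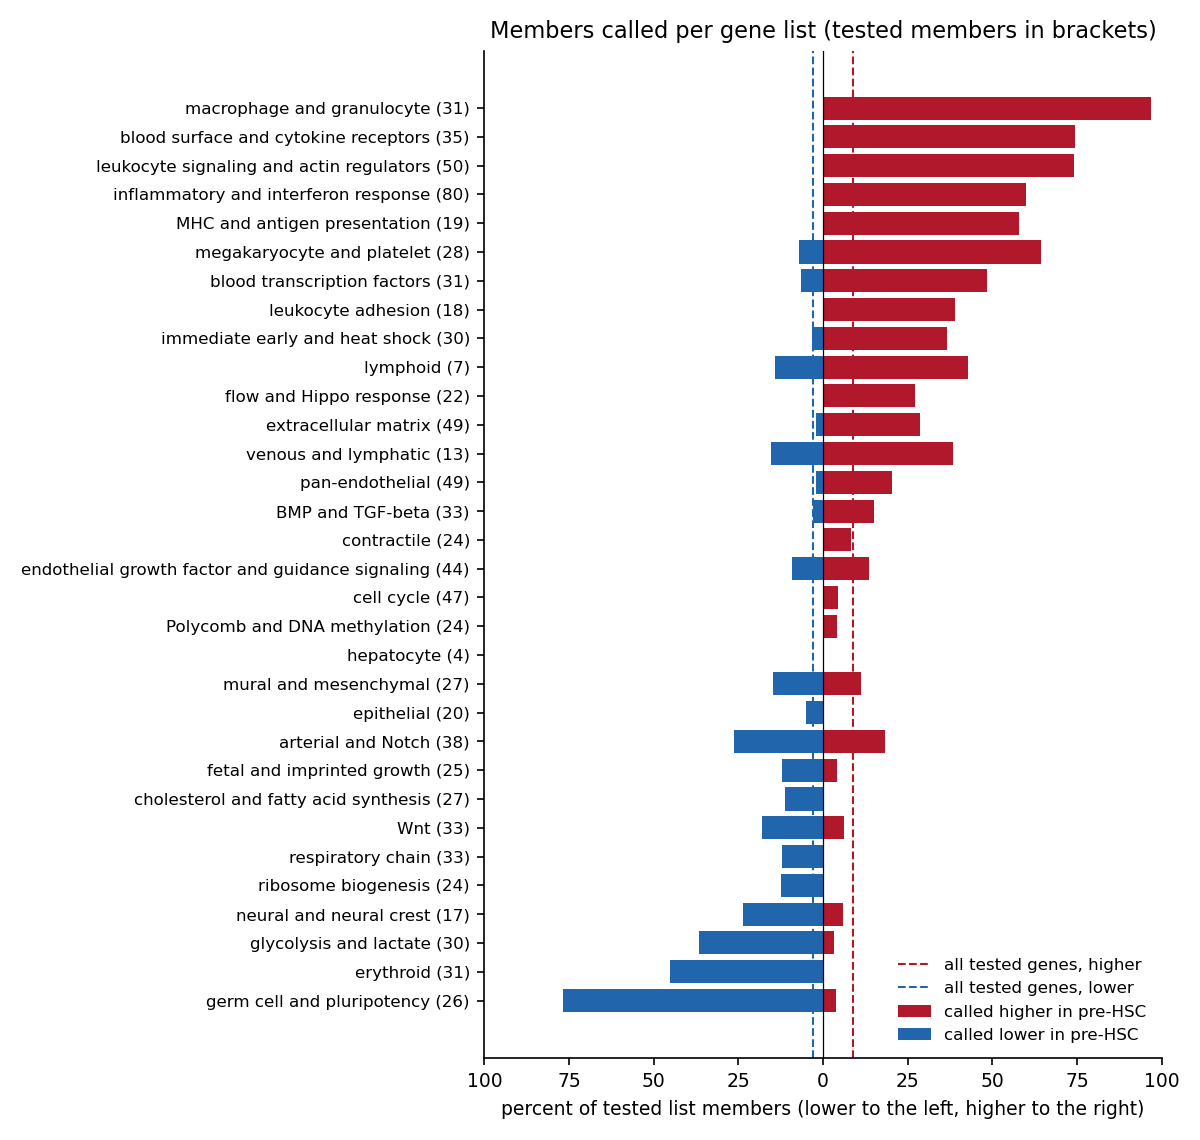
Percent of the tested members of each gene list that were called higher (red, to the right) or lower (blue, to the left) in pre-HSC than in Endo, with the number of tested members in brackets and the shares over all tested genes (8.72% and 2.86%) dashed. Lists range from 96.8% higher for macrophage and granulocyte genes to 76.9% lower for germ cell and pluripotency genes; counts shift with the scaling of the libraries, for example from 11 lower glycolysis genes to 7 after quantile normalization and 4 after scaling to equal totals.

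The genes that define the gates were examined first. Runx1 (chr16:92601712-92826311, mm9, minus strand), whose reporter separated Endo from HE, was at 0.805 and 0.956 FPKM in Endo and at 12.6, 13.1 and 16.1 FPKM in pre-HSCs (log2 fold change 2.98 ± 0.16 SE, adjusted p = 4.85e-06). Kit (chr5:75970941-76052747), the receptor for stem cell factor that gated pre-HSCs in and Endo out, was at 7.55 and 10.8 FPKM against 34.2, 39.2 and 33.2 FPKM (1.86 ± 0.17, adjusted p = 8.14e-05). Ptprc (chr1:139959438-140071882), encoding CD45, was below 0.03 FPKM in both Endo libraries and at 9.75, 7.97 and 13.2 FPKM in pre-HSCs (3.44 ± 0.29, adjusted p = 4.4e-05). None of these genes overlapped between the populations. Kit was gated in both sorts, so its difference is a check and not a finding. Runx1:GFP and CD45 were gated out of Endo alone, so only their low Endo levels are such a check. Ly6a (chr15:74825308-74828064), encoding Sca-1, rose from 0.306 and 0.202 FPKM to 6.83, 7.09 and 3.57 FPKM (adjusted p = 0.00145). Pre-HSCs were gated in on the Ly6a:GFP transgene, so a higher Ly6a level there is also a check and not a finding. Both populations were gated on CD31, and its gene Pecam1 was at 207 and 218 FPKM in Endo and at 255, 283 and 272 FPKM in pre-HSCs, which was not called (0.34, adjusted p = 0.0721). Cdh5, encoding VE-cadherin (CD144), was at 303 and 383 against 454, 489 and 430 FPKM (0.42, adjusted p = 0.223), and Esam at 234 and 204 against 166, 186 and 174 FPKM (-0.32, adjusted p = 0.101). Pre-HSCs, which were gated on all 3 proteins, thus carried these 3 endothelial transcripts at levels close to those of Endo. Itga2b, encoding CD41, was at 3.88 and 5.00 FPKM against 7.12, 10.6 and 9.56 FPKM and missed the 2-fold limit (0.88, adjusted p = 0.0226). CD41 was gated out of Endo alone, so its lower Endo level is a check as well.

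Among blood transcription factors, 15 of 31 tested members were called higher and 2 lower, with a median log2 fold change of 0.86. Of 39 listed factors, 6 were under the level filter and 2 were not analysed here, and 7 of the 15 higher members had passed the filter only through pre-HSCs. Sfpi1 (chr2:90922547-90955913, plus strand), encoding PU.1, the ETS-family factor required for myeloid and lymphoid cells, was at 0.649 and 0.974 FPKM in Endo and at 56.3, 35.1 and 83.3 FPKM in pre-HSCs (4.95 ± 0.33, adjusted p = 1.05e-05). Myb (chr10:20844736-20880790), required for definitive blood cells, was at 0.303 and 0.334 against 16.9, 22.1 and 14.6 FPKM (3.82 ± 0.25, adjusted p = 1.05e-05). Gfi1 (chr5:108145674-108155056), a repressor that helps to shut down the endothelial program in the emerging cells, was at 0.498 and 0.361 against 11.3, 24.2 and 13.8 FPKM (3.54 ± 0.44, adjusted p = 0.000477). The lowest pre-HSC library lay more than an order of magnitude above the highest Endo library for each of these factors. Hlf (chr11:90197849-90252231), a marker of HSCs and their precursors, rose from 0.296 ± 0.101 FPKM (SD, n = 2) to 7.85 ± 2.12 FPKM (SD, n = 3; adjusted p = 5.47e-05), and Nfe2, a factor of the megakaryocyte lineage, rose by 2.76 on the log2 scale. Mecom (chr3:29850221-30446930), which maintains HSCs, rose less, from 10.7 ± 0.693 FPKM (SD, n = 2) to 23.7 ± 1.93 FPKM (SD, n = 3).

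Some other factors of the same network stayed under the 2-fold limit. Lmo2, an adaptor of the early blood and endothelial factor complex, was at 185 and 151 FPKM in Endo and at 116, 131 and 143 FPKM in pre-HSCs (-0.36, adjusted p = 0.0798). Its partner Ldb1 was at 159 and 165 against 160, 158 and 167 FPKM (0.00 ± 0.11 SE), and the ETS factor Fli1 was at 43.9 and 41.5 against 62.7, 66.4 and 56.3 FPKM (0.52, adjusted p = 0.0139), under the 2-fold limit. Cbfb, the binding partner of RUNX1, was at 44.5 and 51.8 against 70.4, 68.4 and 61.7 FPKM (0.47, adjusted p = 0.0385). The gene of the DNA-binding subunit thus changed at least 2-fold, and the gene of its partner did not pass that limit. The 2 lower members were Klf1 and Gata1, factors of the erythroid lineage; 1 lower member was left without Endo replicate 2 or without any 1 of the pre-HSC libraries. Klf1, Gata1 and Mecom were named after their values were seen.

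Leukocyte genes outside the transcription factors were higher as a broad group. For surface proteins and cytokine receptors, 26 of 35 tested members were called higher and none lower (median 1.86, 40 listed, 5 under the filter), of which 14 had passed the filter only through pre-HSCs. Signaling and actin regulators of leukocytes had 37 of 50 tested members higher and none lower (median 2.25, 53 listed), 19 of them passing only through pre-HSCs. Leukocyte adhesion molecules had 7 of 18 tested members higher and none lower (median 0.79, 22 listed), 4 of the 7 passing only through pre-HSCs. Spn (chr7:134275746-134281337), encoding CD43, a surface sialoprotein of the blood clusters, rose from 0.334 and 0.214 FPKM in Endo to 9.08, 11.5 and 9.01 FPKM in pre-HSCs (3.09 ± 0.18, adjusted p = 5.23e-06). Gpr56 (chr8:97508503-97538090), an adhesion receptor of the clusters, was already at 4.81 and 6.27 FPKM in Endo and reached 53.5, 77.4 and 60.3 FPKM (3.30 ± 0.18, adjusted p = 3.99e-06). The pre-HSC libraries lay within 2-fold of each other for these genes and apart from both Endo libraries. Cd34, a surface marker shared by endothelium and progenitors, was at 431 and 391 FPKM in Endo and 246, 295 and 296 FPKM in pre-HSCs and was not called (-0.56, adjusted p = 0.0112).

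Intracellular leukocyte genes showed the same order of change. Coro1a, an actin regulator of leukocytes, rose from 6.30 and 5.69 FPKM to 128, 108 and 231 FPKM (4.41 ± 0.28, adjusted p = 7.25e-06). Rac2, a small GTPase of blood cells, rose from 0.180 and 0.336 to 24.7, 17.1 and 43.0 FPKM (4.44 ± 0.30, adjusted p = 1.07e-05), and Dock2, its exchange factor, from 0.0485 and 0.110 to 8.69, 8.08 and 11.6 FPKM. The highest value of each came from pre-HSC replicate 3. Neurl3 (chr1:36321447-36330270), a ubiquitin ligase gene expressed in hemogenic cells, rose from 2.14 and 1.76 to 24.4, 32.9 and 36.7 FPKM (3.44 ± 0.18, adjusted p = 3.95e-06). Of the adhesion genes, the leukocyte integrin gene Itgb2 rose by 2.39 and the integrin alpha 4 gene Itga4 by 1.90 on the log2 scale.

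The promoters of a few of these genes are shown because ETS factors, the family of PU.1, are known to act on myeloid genes and because the sets moved together. Sequences are the 200 bases before the RefSeq start site, 5′ to 3′ on the gene's own strand, from mouse build GRCm38.p6, which differs from the mm9 build of the expression table. Capitals mark the letters ACTTCCT or their reverse complement AGGAAGT, a core recognized by ETS factors. The blood genes were chosen from those whose window holds these letters, so their matches say nothing of how common such matches are. The first 3 genes are macrophage genes, the next 2 code for the surface proteins CD45 and CD43, and the last 2 are arterial genes that were lower in pre-HSCs.
Lyz2, chr10:117282273-117282472, minus strand: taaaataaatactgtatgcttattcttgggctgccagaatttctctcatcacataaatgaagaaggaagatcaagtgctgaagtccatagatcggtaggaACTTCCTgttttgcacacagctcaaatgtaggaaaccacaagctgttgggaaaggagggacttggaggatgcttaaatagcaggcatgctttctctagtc
C1qc, chr4:136892915-136893114, minus strand: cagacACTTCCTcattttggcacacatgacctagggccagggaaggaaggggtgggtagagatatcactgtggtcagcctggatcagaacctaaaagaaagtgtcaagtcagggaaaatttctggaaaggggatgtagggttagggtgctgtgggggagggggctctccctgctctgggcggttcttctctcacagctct
C1qb, chr4:136886201-136886400, minus strand: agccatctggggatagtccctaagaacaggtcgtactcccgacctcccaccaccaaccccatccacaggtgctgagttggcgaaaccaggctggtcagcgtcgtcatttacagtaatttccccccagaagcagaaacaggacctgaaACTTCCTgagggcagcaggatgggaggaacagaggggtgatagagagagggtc
Ptprc, chr1:138175306-138175505, minus strand: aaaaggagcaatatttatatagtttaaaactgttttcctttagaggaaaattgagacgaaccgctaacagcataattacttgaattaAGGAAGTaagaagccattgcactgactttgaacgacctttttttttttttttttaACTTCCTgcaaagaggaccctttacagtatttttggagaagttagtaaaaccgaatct
Spn, chr7:127137824-127138023, minus strand: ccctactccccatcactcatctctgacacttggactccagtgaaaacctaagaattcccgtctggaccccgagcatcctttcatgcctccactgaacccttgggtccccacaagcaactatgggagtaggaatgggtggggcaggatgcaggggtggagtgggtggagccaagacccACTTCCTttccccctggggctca
Gja4, chr4:127314040-127314239, minus strand: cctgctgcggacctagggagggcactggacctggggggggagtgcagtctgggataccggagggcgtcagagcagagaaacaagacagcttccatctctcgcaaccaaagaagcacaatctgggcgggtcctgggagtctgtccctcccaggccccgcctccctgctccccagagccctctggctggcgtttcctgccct
Hes5, chr4:154960723-154960922, plus strand: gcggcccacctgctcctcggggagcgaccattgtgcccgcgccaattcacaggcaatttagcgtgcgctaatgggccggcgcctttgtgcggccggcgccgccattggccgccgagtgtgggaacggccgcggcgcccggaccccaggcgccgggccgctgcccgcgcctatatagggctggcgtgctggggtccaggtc

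Within the windows shown, the first base of the match lies at -100 from the start of Lyz2, at -195 for C1qc, at -53 for C1qb and at -23 for Spn, and Ptprc holds a match on each strand, at -113 and -58. The sequences shown for Gja4 and Hes5 hold no such letters. Over the wider RefSeq window, from 250 bases before to 50 bases after the start and on both strands, 11 of the 24 promoters found for the 30 called macrophage and granulocyte genes (80% matched by symbol) held ACTTCCT, a share of 45.8% beside 9.57% of all 27025 promoters. The RUNX letters TGTGGT were in 20.8% of the same 24 promoters beside 16.9% of all promoters. These were 2 of several motifs counted in each set. Of the others, SP/KLF letters were in 33.3% of the same 24 promoters beside 35.9% of all promoters, and SOX letters in 8.33% beside 12.8%. None of 12 promoters of the called higher blood transcription factors and none of 8 promoters of the called lower arterial genes held ACTTCCT (80% of each set matched). For the surface, leukocyte signaling and whole tested sets, fewer than 80% of genes had a promoter in the table (65.4%, 73.0% and 67.7%), so the same count is void there. A match is a description of the letters in the window and not evidence of a bound site.

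Macrophage and granulocyte genes had the highest median change of the lists. Of 41 listed genes, 31 were tested, 30 were called higher and none lower (median 4.15), with 9 under the level filter and 1 not analysed here; 21 of the 30 had passed the filter only through pre-HSCs. Lyz2 (chr10:116714390-116719377, mm9), encoding lysozyme, was at 0.0841 and 0.111 FPKM in Endo and at 82.6, 50.7 and 155 FPKM in pre-HSCs (6.32 ± 0.39, adjusted p = 6.38e-06). C1qa (chr4:136451832-136454718), a chain of complement C1q made by macrophages, was at 0.364 and 0.354 against 104, 37.5 and 245 FPKM (6.20 ± 0.77, adjusted p = 0.000478). Csf1r, the receptor for macrophage colony-stimulating factor, was at 0.272 and 0.488 against 85.8, 26.3 and 164 FPKM (5.73 ± 0.76, adjusted p = 0.000725). All 3 genes were at or below 0.5 FPKM in Endo and no pre-HSC library came near that level. In each of them pre-HSC replicate 2 was lowest and replicate 3 highest, with a spread much wider than that of Spn or Gpr56.

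The summed level of the list had the same order of pre-HSC libraries. The summed level of the 40 measured macrophage and granulocyte genes was 25.6 and 24.5 FPKM in Endo, 40.9 and 40.5 FPKM in HE, and 1366, 545 and 2718 FPKM in pre-HSC replicates 1, 2 and 3. In FL HSCs it was 1426 and 782 FPKM, and in BM HSCs 342 and 352 FPKM. All 3 pre-HSC sums thus stood far above Endo and HE but differed several-fold among themselves. At least 1 FPKM in every library of the population was reached by 29 of the 40 genes in pre-HSCs and by 7 in Endo. The ratio of replicate 3 to replicate 2 had a median of 5.41 over the 30 called members (lowest 0.96, highest 8.73). Genes without this order included Mpo and Prtn3, 2 genes of primary granules chosen for mention after their values were seen. Ctsg, a further primary granule gene of the list, was listed at 0 in every Endo and every pre-HSC library. Mpo, encoding myeloperoxidase, was at 15.9, 22.6 and 21.7 FPKM in pre-HSCs, and Prtn3, encoding proteinase 3, at 13.3, 15.9 and 17.2 FPKM. In bulk libraries, more cells of a type and more RNA per cell cannot be told apart, and the part of macrophages carried through the gate was not tested.

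**Figure D3:**
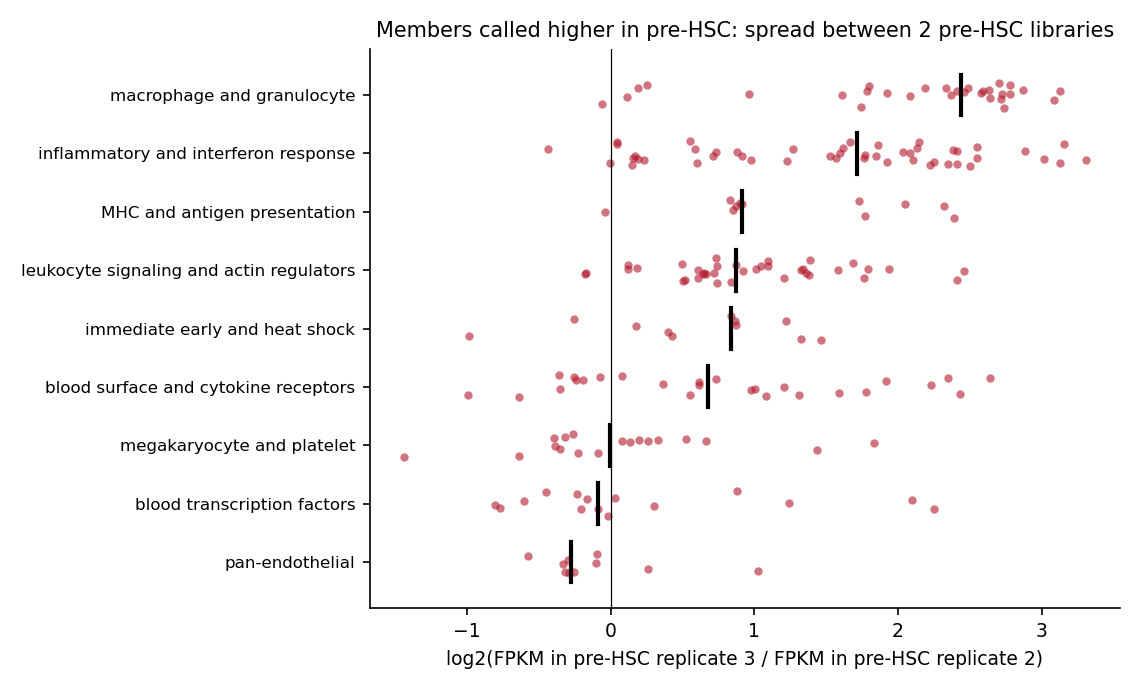
Ratio of the level in pre-HSC replicate 3 to that in replicate 2 (horizontal, log2) for the members of 9 gene lists called higher in pre-HSC (one point per gene, bar at the median). Macrophage and granulocyte genes have a median ratio of 5.41 and inflammatory genes of 3.29, whereas megakaryocyte, blood transcription factor and pan-endothelial genes have medians at 1.0, 0.94 and 0.83.

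The spread between pre-HSC libraries varied widely among the higher genes. Over all 1156 higher genes the median ratio of replicate 3 to replicate 2 was 1.27, compared with 1.01 over all tested genes, and 197 of them (17.0%) had a ratio of at least 3, compared with 3.0% of all tested genes. The order replicate 2, replicate 1, replicate 3 was found in 45.7% of the higher genes and in 22.7% of all tested genes. Csf1r, C1qa and Il1b had this order, with ratios of 6.25, 6.53 and 9.90, and so had Sfpi1 (2.37) and Ptprc (1.66), whereas genes without it included Myb, Gfi1, Hlf, Spn and Gpr56, which had ratios below 1. With replicate 2 as the only pre-HSC library, an alternative added after the values were seen, 25 macrophage and granulocyte genes, 14 blood transcription factors, 22 surface genes and 33 leukocyte signaling genes were called higher.

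Inflammatory and interferon response genes were also higher. Of 85 listed genes, 80 were tested, 48 were called higher and none lower (median 1.5), of which 33 had passed the filter only through pre-HSCs; 37 were called after quantile normalization and 33 with pre-HSC replicate 2 alone. Ccl3, a macrophage chemokine, was at 0.167 and 0 FPKM in Endo and at 63.7, 18.1 and 96.3 FPKM in pre-HSCs (5.51 ± 0.66, adjusted p = 0.000382). Il1b, encoding interleukin 1 beta, was listed at 0 in both Endo libraries and was at 13.7, 3.49 and 34.5 FPKM in pre-HSCs, and Tnf was at 0.0649 and 0.0781 against 13.1, 3.85 and 22.5 FPKM (adjusted p = 0.00136). These cytokine genes followed the same library order as the macrophage genes, an order found in 45.7% of all higher genes. Of the members that were not called, Nfkb1, an NF-kB subunit, was at 28.9 and 30.1 against 47.2, 53.8 and 52.9 FPKM (0.78) and Jak1 at 26.9 and 29.8 against 46.1, 50.6 and 43.6 FPKM (0.70), both under the 2-fold limit. Socs3, a feedback inhibitor of cytokine signaling chosen after its values were seen, rose from 7.06 and 4.42 to 43.9, 54.6 and 56.2 FPKM with no such order (2.98 ± 0.36). Antigen presentation genes had 11 of 19 tested members higher and none lower (median 1.47, 25 listed), 4 of the 11 passing the filter only through pre-HSCs. Without Endo replicate 1, 7 were higher, and after quantile normalization 9 were higher and 1 lower. B2m, the light chain of MHC class I, rose from 115 and 92.6 to 338, 266 and 498 FPKM (1.78 ± 0.24, adjusted p = 0.000738).

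Megakaryocyte and platelet genes were higher in pre-HSCs without a common order of the libraries. Of 31 listed genes, 28 were tested, 18 were called higher and 2 lower (median 1.70), and 12 of the 18 had passed the filter only through pre-HSCs. Ppbp, a platelet chemokine, rose from 0.534 and 0.732 FPKM to 12.8, 17.9 and 13.7 FPKM (3.26 ± 0.20, adjusted p = 5.97e-06), and Serpina3g, a serine protease inhibitor, from 0.659 and 0.811 to 10.7, 18.7 and 15.1 FPKM. Pf4 (chr5:91201461-91202407), platelet factor 4, rose from 5.77 and 3.69 to 129, 68.6 and 245 FPKM (4.53 ± 0.67, adjusted p = 0.00124). Pf4 was lowest in pre-HSC replicate 2 and highest in replicate 3, whereas Ppbp and Serpina3g were highest in replicate 2. Clec1b, the platelet receptor for podoplanin, named after its values were seen, and Gata1 were the 2 lower members (1 without Endo replicate 2 or any 1 pre-HSC library). Of 27 lymphoid genes 7 were tested, and the others were under the filter. Ighm, Ltb and Cd79b were called higher and Tcf7 lower (median 0.43), and after quantile normalization 2 were higher and 1 lower (median -0.01). Ighm, the immunoglobulin mu heavy chain, rose from 0.0802 and 0.0211 to 20.9, 5.58 and 43.5 FPKM, lowest in replicate 2 and highest in replicate 3. Ltb, lymphotoxin beta, rose from 2.10 and 1.37 to 6.23, 8.53 and 7.69 FPKM. Tcf7, a factor of T cells that also acts in Wnt signaling, fell from 13.9 and 15.8 to 6.96, 6.82 and 5.12 FPKM (-1.13, adjusted p = 0.00833).

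Part of the immediate early genes was higher in pre-HSCs. Of 30 tested members, 11 were higher and 1 lower (median 1.06), and 7 were higher without Endo replicate 2. In a fit of the 5 libraries alone 14 were higher, and 16 were higher without either 1 of the BM HSC libraries. Zfp36, a destabilizer of cytokine mRNAs, rose from 11.4 and 12.3 to 156, 99.0 and 248 FPKM (3.62 ± 0.56, adjusted p = 0.00157), and the nuclear receptor gene Nr4a1 from 15.1 and 16.1 to 70.6, 65.5 and 88.0 FPKM (2.18 ± 0.26). Fosb was at 6.21 and 6.56 against 41.5, 31.5 and 64.9 FPKM. It did not overlap between the populations but was not called (adjusted p = 0.141, limma fit of all 11 libraries). Heat shock genes of the same list did not follow. Hspa8 was at 1186 and 992 FPKM against 805, 930 and 930 FPKM (-0.29, adjusted p = 0.159). The effect of dissociation on these levels was not tested.

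Most pan-endothelial genes were not called between Endo and pre-HSCs. The pre-HSC gate itself required CD31, CD144 and ESAM, and the part of endothelial cells carried through it was not tested. All 49 listed pan-endothelial genes were above 1 FPKM in each of the 5 libraries, 10 were called higher, 1 lower (2 without Endo replicate 2 or pre-HSC replicate 2) and 38 were not called (median 0.18, beside 0.15 over all tested genes). Their summed level was 6730 and 6221 FPKM in Endo and 6316, 6991 and 6628 FPKM in pre-HSCs, so the populations overlapped, whereas it was 945 and 1044 FPKM in FL HSCs and 942 and 908 FPKM in BM HSCs. Plvap, a protein of endothelial fenestrae, was at 662 and 627 against 576, 615 and 606 FPKM (-0.10, adjusted p = 0.675). Egfl7, an endothelial secreted factor, was at 1011 and 768 against 584, 688 and 675 FPKM (-0.44, adjusted p = 0.0804), and Cldn5, the endothelial tight junction claudin, at 681 and 504 against 284, 330 and 335 FPKM (-0.89, adjusted p = 0.0328). The last did not overlap between the populations and stayed under the 2-fold limit.

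Among the endothelial genes that differed, most were higher in pre-HSCs. Calcrl (chr2:84170783-84265568), the receptor for adrenomedullin, rose from 34.9 and 42.5 FPKM to 170, 168 and 141 FPKM (2.02 ± 0.22, adjusted p = 0.000216). Vwf (chr6:125496792-125636697), von Willebrand factor, rose from 73.1 and 35.4 to 162, 164 and 197 FPKM (1.75 ± 0.38, adjusted p = 0.00867), a call lost without Endo replicate 2 (1.24, adjusted p = 0.0682), and Ptprb, the endothelial receptor phosphatase, from 8.43 and 11.3 to 34.6, 38.5 and 30.6 FPKM (1.72 ± 0.19). In all 3 genes each pre-HSC library exceeded both Endo libraries by at least 2-fold. Lyve1 (chr7:117994121-118006467), a hyaluronan receptor of lymphatic and venous endothelium that macrophages also make, rose from 4.70 and 6.69 to 39.9, 27.2 and 55.4 FPKM (2.60 ± 0.36). It was lowest in pre-HSC replicate 2 and highest in replicate 3. Stab2 (chr10:86303943-86470770), a hyaluronan receptor of sinusoidal endothelium, rose from 7.35 and 10 to 39.4, 47.7 and 31.9 FPKM (2.07 ± 0.47, adjusted p = 0.00972), a call lost without Endo replicate 1 (adjusted p = 0.0926). Esm1, a marker of VEGF-stimulated tip cells, was the lower gene, at 10.2 and 8.79 against 1.77, 2.29 and 2.31 FPKM (-1.75 ± 0.18, adjusted p = 0.000178). The ligand of Calcrl, Adm, was likewise lower, at 13.8 and 21.8 against 1.84, 2.57 and 2.60 FPKM (-2.47 ± 0.37, adjusted p = 0.00136). Of the receptor activity-modifying proteins that pair with Calcrl, Ramp3 was lower at 28.3 and 24.1 against 4.37, 5.48 and 5.29 FPKM (-2.17 ± 0.19), whereas Ramp2 was at 378 and 314 against 319, 354 and 370 FPKM (0.01). The receptor gene rose, whereas the ligand gene and the partner gene Ramp3 fell.

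Arterial and Notch genes split. Of 38 tested members, 10 were called lower (26.3%, beside 2.86% of all tested genes) and 7 higher (18.4%), with a median of 0.01. The count of lower members was 10 after quantile normalization and 7 after scaling to equal totals, and that of higher members 5 and 11. Gja4 (chr4:126988665-126991283), the arterial gap junction connexin 37, was at 140 and 81.8 FPKM in Endo and at 19.3, 22.7 and 27.3 FPKM in pre-HSCs (-2.18 ± 0.30, adjusted p = 0.000925). Hey1 (chr3:8663362-8667039) and Hes5 (chr4:154335032-154336480), transcriptional targets of Notch, fell as well. Hey1 was at 46.0 and 36.4 against 9.33, 11.1 and 12.2 FPKM (-1.83 ± 0.26, adjusted p = 0.000939), and Hes5 at 4.11 and 4.85 against 0.414, 0.228 and 0 FPKM (-2.19 ± 0.33, adjusted p = 0.00151). The arterial Notch ligand Dll4 (chr2:119151520-119161698) was at 35.3 and 31.6 against 10.9, 14.5 and 12.8 FPKM (-1.33 ± 0.22, adjusted p = 0.00201), and the netrin receptor gene Unc5b at 29.2 and 35.9 against 10.9, 11.2 and 10.9 FPKM (-1.48 ± 0.17). For these lower genes the populations did not overlap.

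Other arterial genes were not called lower, and some rose. Efnb2, the ephrin ligand that marks arteries, was at 34.2 and 47.0 FPKM in Endo and 47.0, 52.4 and 39.0 FPKM in pre-HSCs (0.19, adjusted p = 0.532), Acvrl1 at 69.8 and 66.7 against 58.8, 62.3 and 61.6 FPKM (-0.16), and Nrp1 at 25 and 32.7 against 51.5, 50.6 and 46.6 FPKM (0.77). Sox17, an arterial SOX factor, was at 65.5 and 63.8 against 32.2, 45.7 and 33.4 FPKM (-0.80, adjusted p = 0.0156), without overlap but under the 2-fold limit. Edn1 (chr13:42396639-42403358), encoding endothelin 1, rose from 9.14 and 7.48 to 35.1, 27.6 and 33.1 FPKM (1.82 ± 0.21, adjusted p = 0.000295). Dll1 (chr17:15504318-15513836), another Notch ligand, rose from 8.27 ± 1.67 FPKM (SD, n = 2) to 21.5 ± 3.89 FPKM (SD, n = 3; adjusted p = 0.00805, limma), and Rbpj (chr5:53947018-54048684), the DNA-binding partner of Notch, from 9.99 ± 2.60 to 21.1 ± 3.58 FPKM. A Notch ligand, the DNA-binding partner and the coactivator Maml2 (1.42) were thus higher while the targets Hey1 and Hes5 were lower; Dll1 and Rbpj were named after their values were seen.

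Venous genes were not absent from Endo, and some were called higher in pre-HSCs, several of them only with Endo replicate 1 in the fit. Of 13 tested venous and lymphatic members, 5 were called higher and 2 lower (median 0.59), and without Endo replicate 1 the count was 2 and 2. Cd36 (chr5:17287508-17394777), a fatty acid receptor of venous and capillary endothelium and also of macrophages, rose from 1.21 and 1.73 to 17.8, 17.1 and 19.9 FPKM (2.97 ± 0.25, adjusted p = 4.48e-05). Nr2f2 (chr7:77496832-77511621), the factor that sets venous identity, was at 17.0 and 26.7 FPKM in Endo and at 50.9, 59.1 and 41.0 FPKM in pre-HSCs (1.18 ± 0.26, adjusted p = 0.00879), and Nrp2 (chr1:62749859-62865269), a venous semaphorin and VEGF-C receptor, at 27.7 and 46.4 against 87.9, 91.1 and 79.2 FPKM (1.24 ± 0.26, adjusted p = 0.00724). Each pre-HSC library was above both Endo libraries, but both calls were lost without Endo replicate 1 (adjusted p = 0.104 for Nr2f2 and 0.0895 for Nrp2). Tek (1.01) likewise fell under the 2-fold limit without Endo replicate 1 (0.91). The higher members whose calls did not rest on that library were Cd36 and Lyve1, which macrophages also make. The 2 lower members were Pdpn (-1.54) and Reln (-1.12). Ephb4, the venous receptor of ephrin B2, was at 105 and 124 against 133, 138 and 126 FPKM (0.22, adjusted p = 0.25), and Aplnr, the apelin receptor, at 227 and 259 against 317, 335 and 315 FPKM (0.41). The Endo libraries, labelled as endothelium of the major arteries, held venous transcripts such as Aplnr and Ephb4 at over 100 FPKM beside arterial Gja4.

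**Figure D4:**
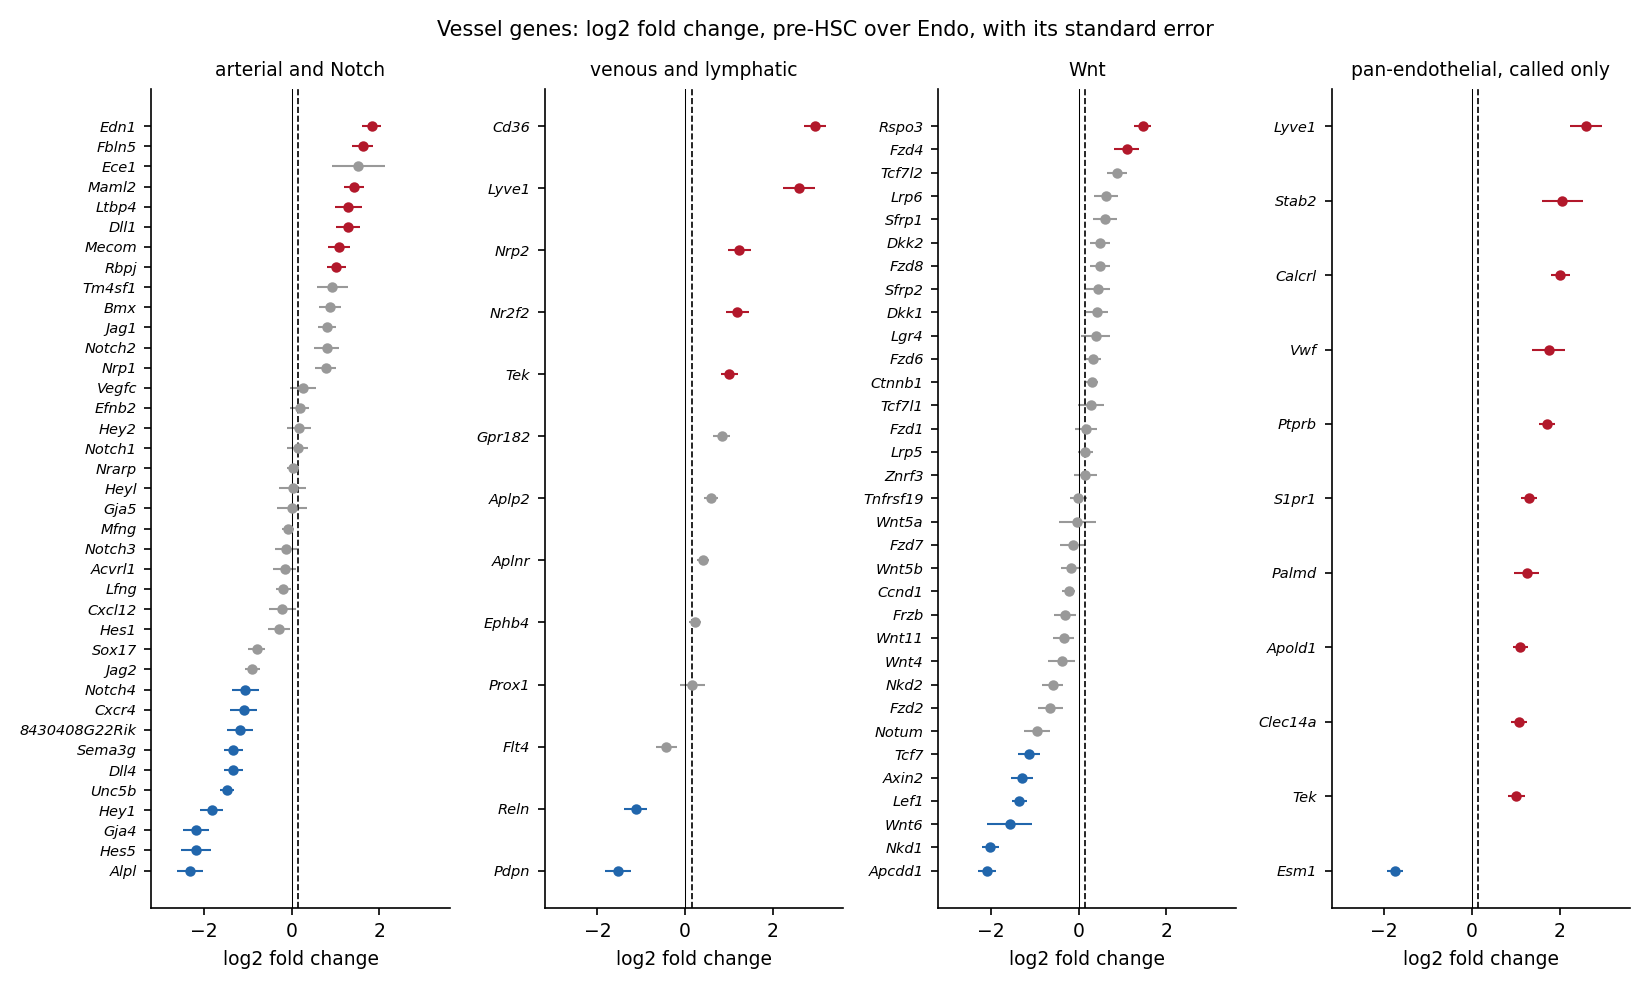
Log2 fold change of pre-HSC over Endo (horizontal, bars are standard errors) for every tested arterial and Notch, venous and lymphatic, and Wnt list member and for the called pan-endothelial genes; called genes are red when higher and blue when lower, and the dashed line is the median of all tested genes (0.15). Arterial genes spread from Alpl at -2.32 to Edn1 at 1.82; under quantile normalization and equal totals the arterial counts were 5 higher and 10 lower, and 11 higher and 7 lower.

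Several targets and modulators of Wnt signaling were lower in pre-HSCs. Of 33 tested Wnt list members, 6 were called lower (18.2%) and 2 higher, 8 and 1 after quantile normalization, 4 and 2 after scaling to equal totals, and 7 and 1 without Endo replicate 1. Apcdd1, a Wnt inhibitor at the cell surface, was at 37.1 and 36.9 FPKM in Endo and at 8.61, 8.46 and 6.74 FPKM in pre-HSCs (-2.10 ± 0.20, adjusted p = 0.000106). Nkd1 (chr8:91045243-91118786), an intracellular inhibitor of Wnt signaling and itself a Wnt target, was at 20.4 and 21.8 against 5.24, 3.82 and 4.52 FPKM (-2.01 ± 0.19, adjusted p = 8.69e-05). Lef1 (chr3:130813389-130927274), a nuclear effector, was at 20.5 and 24.8 against 8.38, 8.61 and 7.83 FPKM (-1.35 ± 0.16, adjusted p = 0.000413). In all 3 genes every Endo library was more than 2-fold above every pre-HSC library. Axin2, a common target of the pathway, was at 6.58 and 9.55 against 3.43, 2.74 and 1.96 FPKM (-1.29 ± 0.25, adjusted p = 0.00497). Rspo3, a secreted enhancer of Wnt signaling, was higher, at 1.92 and 1.70 against 7.27, 7.27 and 5.76 FPKM (1.46 ± 0.20). The shared effector Ctnnb1 was at 356 and 420 against 463, 514 and 460 FPKM (0.31, adjusted p = 0.102).

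Flow-responsive genes and matrix genes changed in part. Of 22 tested flow and Hippo members, 6 were higher and none lower (median 0.48). Klf4 (chr4:55540013-55545347), a shear stress-induced factor, rose from 7.79 and 9.17 to 41.0, 42.4 and 47.2 FPKM (2.23 ± 0.55, adjusted p = 0.0134), which was lost without Endo replicate 1 (adjusted p = 0.102), and Thbd, thrombomodulin, rose from 13.0 and 14.6 to 40.0, 42.7 and 41.9 FPKM (1.52 ± 0.23, adjusted p = 0.00145). Klf2 was at 83.5 and 74.5 against 118, 111 and 117 FPKM (0.54, adjusted p = 0.654) and Nos3, the endothelial nitric oxide synthase, at 59.7 and 58.5 against 49.6, 60.7 and 51.5 FPKM (-0.14, adjusted p = 0.538). Flow-responsive genes thus did not move as 1 group. Of 49 tested matrix genes, 14 were higher and 1 lower (median 0.47), 8 and 0 after quantile normalization, and 5 and 2 without Endo replicate 1. Eln (chr5:135179651-135223111), encoding elastin, was at 1.75 and 1.97 FPKM in Endo and at 33.1, 30.5 and 51.5 FPKM in pre-HSCs (3.75 ± 0.23, adjusted p = 6.54e-06), one of the largest changes outside the blood lists. Col4a1, a collagen of basement membranes, was at 303 and 385 against 364, 386 and 323 FPKM (0.06, adjusted p = 0.795). Of 33 tested BMP and TGF-beta genes, 5 were higher (15.2%, beside 8.72% of all tested genes) and 1 lower (3.03%, beside 2.86%), with a median of 0.43. Only 1 was higher after quantile normalization and 1 without Endo replicate 1. In the guidance and growth factor list, 6 of 44 tested members were higher (13.6%) and 4 lower (9.09%), with a median of 0.05. Without Endo replicate 1, 2 were higher. Among the higher members, Angpt1, the ligand of the TIE2 receptor, rose from 0.658 and 0.999 to 7.99, 8.47 and 6.14 FPKM (2.22 ± 0.24).

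Genes of neighboring tissues were counted as well. Of 24 tested contractile genes, 2 were higher and none lower, with none called after quantile normalization and 1 higher without any 1 of the 5 libraries. Acta2, smooth muscle actin, was at 67.8 and 61.1 FPKM in Endo and 87.2, 50.2 and 60.8 FPKM in pre-HSCs (0.00, adjusted p = 0.998), although it was at 303 and 284 FPKM in HE, so comparing Endo with pre-HSC passes over that peak. Tagln followed the same course, at 45.0 and 38.8 FPKM in Endo, 172 and 159 FPKM in HE, and 36.4, 20.5 and 30.3 FPKM in pre-HSCs. Mural and mesenchymal genes had 3 higher (11.1%) and 4 lower (14.8%) of 27 tested members (1 lower without Endo replicate 2), and their summed level was 2163 and 2235 FPKM in Endo and 1860, 1912 and 1830 FPKM in pre-HSCs. Of 20 tested epithelial genes, Krt8 alone was called, at 23.5 and 82.2 FPKM in Endo and 16.1, 8.03 and 10.2 FPKM in pre-HSCs, a call lost without Endo replicate 2; 7 were lower after quantile normalization, 4 without Endo replicate 1 and 2 without pre-HSC replicate 1 or 2. Neural genes had 4 of 17 tested members lower (23.5%) and 1 higher (7 lower after quantile normalization), and of 13 hepatocyte genes 4 were tested and none was called.

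Germ cell and pluripotency genes had the lowest median change of the lists. Primordial germ cells lie near the dorsal aorta on their way to the gonads at this stage. Of 39 listed genes, 26 were tested, 20 were called lower and 1, Kit, higher (median -2.25), and 12 had passed the filter only through Endo. Dppa5a (chr9:78214859-78215984) was at 96.4 and 61.1 FPKM in Endo and was listed at 0 in all 3 pre-HSC libraries (adjusted p = 1.14e-06). Pou5f1 (chr17:35642982-35647721), encoding OCT4, was at 51.3 and 37.3 FPKM against 0.0831, 0 and 4.23 FPKM (-4.65 ± 0.58, adjusted p = 0.000469). Dppa3, a germ cell chromatin factor, was at 39.6 and 24.7 against 0.341, 0.368 and 0.216 FPKM (-4.63 ± 0.26, adjusted p = 5.18e-06). Both Endo libraries held these transcripts well above every pre-HSC library, and 1 pre-HSC library held Pou5f1 at 4.23 FPKM with no Dppa5a. In HE, Dppa5a was at 13.0 and 8.08 FPKM, and HE lay nearer to Endo for only 7 of the 20 lower members. The summed level of the 39 genes was 631 and 505 FPKM in Endo, 297 and 261 FPKM in HE, and 231, 274 and 353 FPKM in pre-HSCs. It was higher than in Endo in both HSC populations, at 750 and 778 FPKM in FL HSCs and 1262 and 1314 FPKM in BM HSCs. The sum is therefore not a measure of germ cells alone, and the part of germ cells in the Endo libraries was not tested. Lin28b, an RNA-binding protein shared with fetal blood cells, was at 6.97 and 8.29 FPKM against 7.90, 9.09 and 8.00 FPKM (0.11), whereas its paralog Lin28a fell from 12 and 21.7 to 1.29, 0.957 and 1.59 FPKM (-2.92 ± 0.32).

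Erythroid genes were lower as well. Of 35 listed genes, 31 were tested, 14 were called lower and none higher (median -0.77), with 16 lower after quantile normalization, 10 after scaling to equal totals and 8 without Endo replicate 1. Hbb-bh1 (chr7:110990150-110991678), the embryonic beta-like globin, was at 2548 and 2523 FPKM in Endo and at 131, 192 and 132 FPKM in pre-HSCs (-4.08 ± 0.28, adjusted p = 1.37e-05). Hba-x, the embryonic alpha-like globin, was at 1854 and 2198 against 138, 203 and 142 FPKM (-3.66 ± 0.43, adjusted p = 0.000316). Hbb-y (chr7:111000259-111001754) was at 3488 and 3717 against 501, 663 and 601 FPKM (-2.62 ± 0.59, adjusted p = 0.00973), a call lost without Endo replicate 1 (adjusted p = 0.0701). Embryonic globins were thus far lower in pre-HSCs, but not absent. The summed level of 33 erythroid genes was 8782 and 9386 FPKM in Endo, 9582 and 12414 FPKM in HE, and 1081, 1425 and 1254 FPKM in pre-HSCs. Alas2, which starts heme synthesis in red cells, was at 14.1 and 19.9 against 2.43, 2.16 and 1.71 FPKM, and Klf1, the erythroid factor, at 4.13 and 7.77 against 0.837, 0.757 and 0.873 FPKM (-1.88). The part of red cells or free globin RNA in the Endo libraries was not tested. Hba-a1 and Hba-a2 are near-identical copies and are uncertain as single genes.

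Glycolysis was the metabolic group with the most lower members. Of 30 tested genes, 11 were called lower (36.7%) and 1, Hk3, a hexokinase of myeloid cells, higher, with a median of -0.43; the lower count was 7 after quantile normalization and 4 after scaling to equal totals. Slc2a1 (chr4:118781316-118809935), the glucose transporter GLUT1, was at 427 and 495 FPKM in Endo and at 112, 133 and 132 FPKM in pre-HSCs (-1.87 ± 0.18, adjusted p = 9.29e-05). Slc16a3 (chr11:120809794-120822182), a lactate exporter, was at 120 and 187 against 33.2, 38.4 and 34.1 FPKM (-2.06 ± 0.25, adjusted p = 0.000437). Pkm2 (chr9:59504383-59527182), pyruvate kinase, was at 1704 and 1654 against 518, 556 and 565 FPKM (-1.62 ± 0.18, adjusted p = 0.000223), and Eno1 (chr4:149610830-149622988), enolase, at 949 and 854 against 261, 254 and 271 FPKM (-1.78 ± 0.18, adjusted p = 0.000131). These 4 genes kept their calls in both other scalings, and no pre-HSC library reached an Endo level. Gapdh, at 315 and 315 against 215, 224 and 260 FPKM, was not called (-0.44, adjusted p = 0.149). Respiratory chain genes had 4 of 33 tested members lower and none higher (median -0.56), with 1 lower without Endo replicate 1, 7 without Endo replicate 2 and 1 after quantile normalization. Of 27 tested genes of cholesterol and fatty acid synthesis, 3 were lower (11.1%) and none higher, with 2 lower in either other scaling. Fdps, which makes the isoprenoid precursor of cholesterol, fell from 207 and 178 to 66.9, 67.1 and 66.9 FPKM (-1.5 ± 0.21). Ribosome biogenesis had 3 of 24 lower (12.5%), 2 after quantile normalization and 1 after scaling to equal totals. These shares, and 12.1% lower for the respiratory chain, stand beside 2.86% of all tested genes. Of 77 tested ribosomal protein genes 1 was lower and none higher (median -0.64).

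The remaining lists had few called members. Of 47 tested cell cycle genes 2 were higher (4.26%) and none lower (1 higher without Endo replicate 1 or pre-HSC replicate 3), with Cdk1 at 325 and 209 FPKM against 208, 222 and 232 FPKM (-0.24, adjusted p = 0.451). Of 24 tested Polycomb and DNA methylation genes, 1 was higher (5 after scaling to equal totals, 4 without Endo replicate 2 and 2 without pre-HSC replicate 3), the methyltransferase gene Dnmt3b, which rose from 9.58 and 11.8 to 23.2, 30.5 and 25.9 FPKM (1.23 ± 0.16). Of 25 tested fetal and imprinted genes, 1 was higher and 3 were lower (12%, beside 2.86% of all tested genes; none higher without Endo replicate 1, and 2 higher without Endo replicate 2 or pre-HSC replicate 3). The imprinted RNA H19 was at 5365 and 5163 against 3606, 3861 and 4110 FPKM (-0.45, adjusted p = 0.0786), and Igf2 at 1441 and 1374 against 1555, 1625 and 1459 FPKM (0.13, adjusted p = 0.605).

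HE, the population left out of the comparison, was mostly nearer to Endo than to pre-HSCs. By the study's methods HE was sorted from the same matings and with the same reporter as Endo, and pre-HSCs from another mating and reporter. Nearness of HE to Endo therefore cannot be told apart from stage, mating and reporter. The mean of HE lay nearer to Endo than to pre-HSC for 1083 of the 1156 higher genes (93.7%) and for 347 of the 379 lower genes (91.6%), compared with 74.3% of all tested genes. Runx1 was at 3.74 and 3.13 FPKM in HE, between both populations, and Gfi1 was at 9.42 and 4.21 FPKM there, nearer to its pre-HSC level. Of the higher genes, 757 were also at least 2-fold above Endo in FL HSCs and 783 in BM HSCs, and of the lower genes 229 and 295 were at least 2-fold below it. Kit, Myb, Spn and Runx1 rose further in both HSC populations, for example Myb to 113 and 134 FPKM in FL HSCs. Calcrl instead returned to 38.2 and 62.2 FPKM in FL HSCs, near its Endo level, and Csf1r fell to 0.136 and 0.0674 FPKM in BM HSCs.

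**Figure D5:**
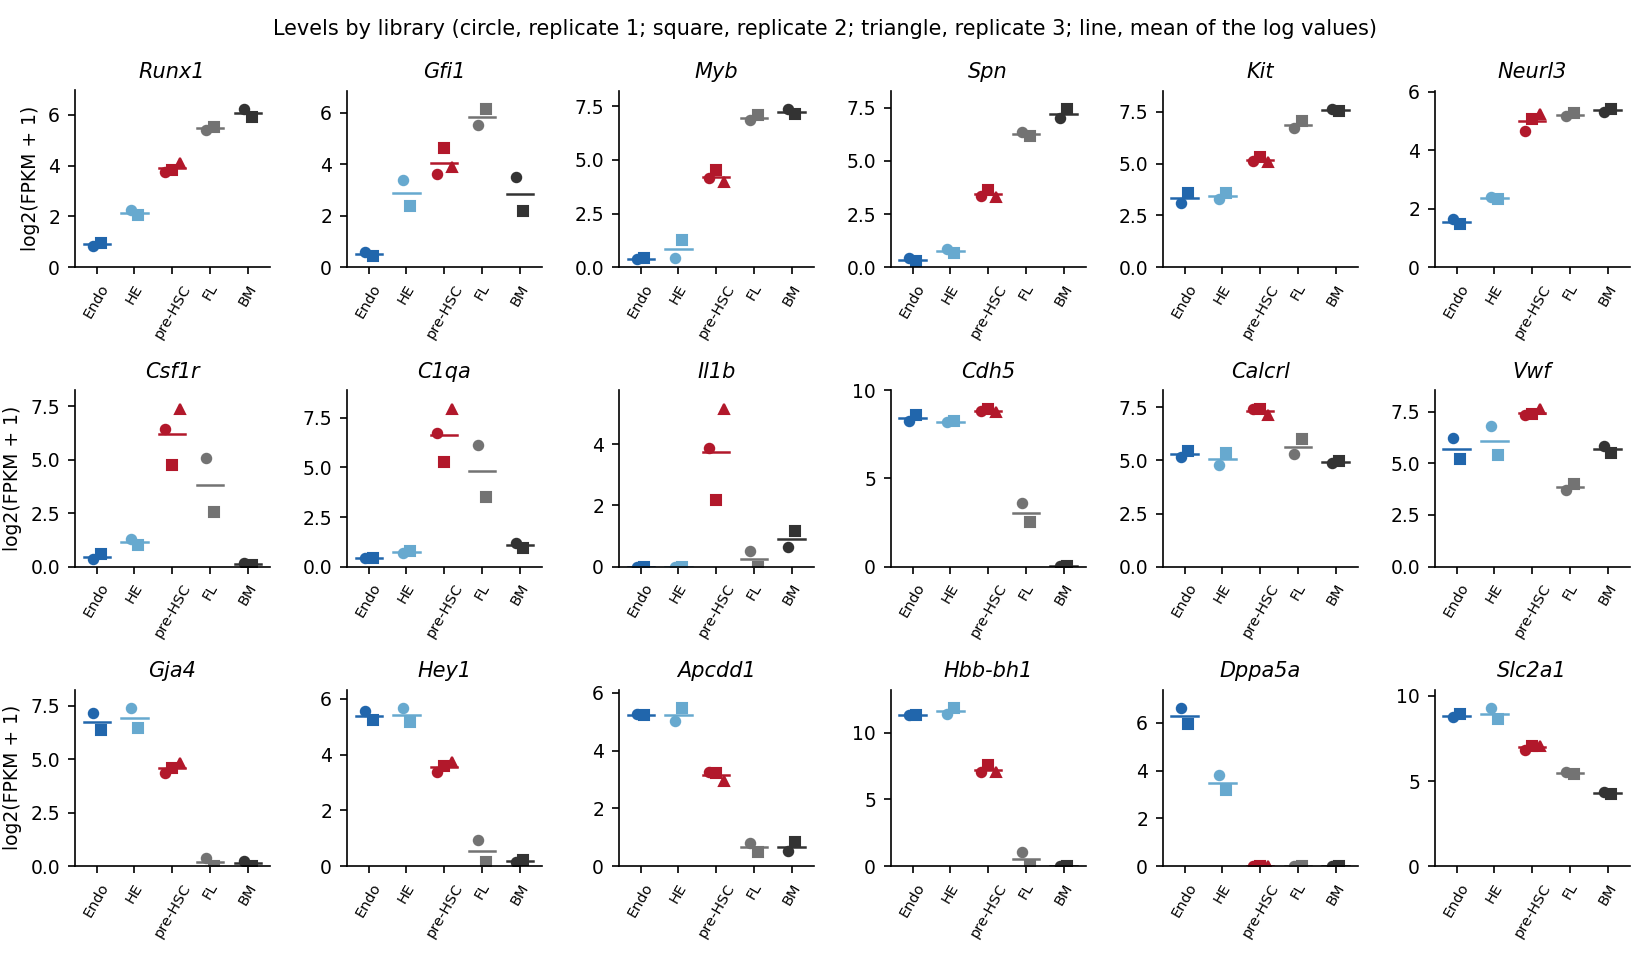
Level of 18 genes as log2(FPKM + 1) (vertical) in each of the 11 libraries by population, with symbols for the replicate and a line at the mean of the log values. Runx1, Myb, Spn and Kit climb to BM HSC, Calcrl and Il1b peak in pre-HSC, Gja4, Hey1, Apcdd1, Hbb-bh1 and Slc2a1 stay near their Endo level in HE and drop in pre-HSC, and Dppa5a drops in HE already.

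Some large values belong to features that short read counts cannot resolve. Of 339 tested pseudogenes, 64 were called, beside 1535 of all 13262 tested genes (11.6%). The ribosomal protein gene copy Rps26-ps1 was at 237 and 234 FPKM in Endo and at 4.95, 3.95 and 4.55 FPKM in pre-HSCs. Such copies share reads with their parent genes and are uncertain. Hbb-bh0 was at 979 and 739 FPKM in Endo and at 0, 385 and 0 FPKM in pre-HSCs, where an exact 0 beside 385 may be a failed estimate, and its call was lost without any 1 Endo library or without pre-HSC replicate 1 or 3. The largest uncalled differences were those of short RNAs such as U6, listed at 0 in both Endo libraries and at 0, 333 and 771 FPKM in pre-HSCs (adjusted p = 0.0556).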

How the data were processed

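Poly(A) RNA of sorted mouse cells was sequenced as paired ends. The deposited FPKM values were made by the authors from reads aligned with TopHat to mm9, uniquely mapped reads and Ensembl genes. The submitters' notes also name Cufflinks, Subread, featureCounts and edgeR, without saying which of them made the FPKM values (not given in the sources used here). Of 37820 gene IDs, 37038 (97.9%) were found in GENCODE M1, which gave mm9 coordinates. The study's methods test counts, and FPKM values are not counts. Therefore limma 3.58.1 (R 4.3.3) was fitted with a trend to log2(FPKM + 1) of all 11 libraries, for genes with at least 1 FPKM in at least 2 of the 5 libraries compared, with Benjamini-Hochberg adjustment. The fit was tested on simulated data. Plots were drawn with matplotlib 3.10.9, and tables were made with pandas 2.3.3 and numpy 2.4.6 under Python 3.11.15. Promoters came from RefSeq (GRCm38.p6) by symbol.

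No whole-read step was found: the product of FPKM and length, rounded to 3 significant digits, was shared by no more than 9 single-exon genes within any library, and depth was taken as unknown. Named genes were the genes of the sort and of the study, the 15 largest higher and 15 largest lower called genes with a mean of at least 10 FPKM in the higher population and no overlap, up to 8 called and 4 uncalled members per list, the 5 highest called genes of each population and the 5 largest uncalled ones. The comparison, the lists and the tests were chosen with earlier results of these data known. Alternatives were other pseudocounts, filters, scalings and thresholds, a replicate block, a fit of the 5 libraries alone, zeros as missing and leaving out each library.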

Additional observations from a re-analysis of the deposited data

How the results depend on the processing

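The total of 1535 called genes fell to 405 with a 4-fold limit. Leaving out 1 library gave 993 to 1756 called genes, 701 to 1281 higher and 292 to 475 lower, with the lowest counts without Endo replicate 1 (993 called, 701 higher). Quantile normalization gave 708 higher and 621 lower genes, and scaling to equal totals 1733 and 202. With replicate 2 as the only pre-HSC library, an alternative chosen after seeing the data, 855 genes were called, 612 higher and 243 lower; it has fewer samples. For the other changes the cause was not tested. With the replicate number as a block, 1500 genes were called, 1088 higher and 412 lower, but the numbers were not found to pair the libraries: deviations of same-numbered Endo and pre-HSC libraries correlated at -0.076 and 0.088 across genes. Of 198 called genes covered by the naming rule, 127 kept their call in every alternative in which they were tested, and 0 changed sign there. The 4-fold limit was not applied to single genes, and genes under the stricter filter of 5 FPKM had no result in that alternative. After quantile normalization 29 calls were lost, and after scaling to equal totals 18. Calls were also lost without Endo replicate 1 and with replicate 2 as the only pre-HSC library, which each leave 1 library in a population.

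With 2 Endo libraries, 1 library decides many calls, and depth is unknown, so levels near 0 carry no stated precision. Stage, mating, reporter and gate cannot be told apart from the population. Short RNAs and near-identical gene copies are uncertain.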
